A study of Mus musculus with 2 samples.

Results

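Mir137, both genes of miR-128, the 3 genes of miR-7 and both genes of miR-138 are microRNA (miRNA) genes best known from the nervous system, and here they were followed in embryonic mouse heart. They were picked by name, with earlier results of these data known. They are 8 of the 1973 miRNA genes with a row in the count tables, and all 8 had counts. The series holds 1 group of 2 small RNA libraries from hearts of B6NCrl embryos at embryonic day 14.5. Replicate 1 was collected on 15 July 2014 and replicate 2 on 17 July, and the labels number them as biological replicates. The labels give no genotype beyond the strain and no agent. They name a single heart per library but also pooled sexes, and do not settle which holds. With 1 group there is no comparison between conditions and no test, so values are counts and CPM (counts scaled to the total on miRNA genes of the counted strand in each library) in each library. The spread between the libraries may be biological or technical.

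A miRNA is cut from a hairpin in a longer transcript, and 1 strand of about 22 bases is loaded into an Argonaute protein, where bases 2 to 8, the seed, pair with target messenger RNAs and lower their output. miR-137 acts in neural progenitors and neurons, and its human gene lies in a region associated with schizophrenia. miR-128 is enriched in brain neurons, where it limits excitability in mice. miR-7 is found in neurosecretory cells of the brain and in endocrine cells of the pancreas, and miR-138 restrains the growth of dendritic spines in rodent neurons. Roles in the heart have also been described, as for miR-138 in the patterning of the zebrafish heart.

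The sequences show which loci can be told apart in these data, since reads that map to several places were counted outside the genes. The mature strands for which these families are best known follow, 5′ to 3′ from RefSeq (GRCm38.p6), with the seed in capitals.
miR-137-3p: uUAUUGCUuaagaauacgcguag
miR-128-3p: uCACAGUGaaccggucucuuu
miR-7a-5p: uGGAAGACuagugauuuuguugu
miR-7b-5p: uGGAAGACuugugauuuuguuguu
miR-138-5p: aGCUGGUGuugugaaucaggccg
These 5 strands have 4 distinct seeds. miR-7a-5p and miR-7b-5p share theirs, and the other 3 seeds occur in no other of the 1679 mature miRNA names in the table. Counting from the 5′ end of miR-7a-5p, miR-7b-5p differs by A10U, and it is longer by 1 base at the 3′ end.

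miR-128-3p, miR-7a-5p and miR-138-5p are each made by a pair of loci with the same mature sequence. The hairpins of those 6 genes follow, with the longest stretch shared with the other copy in capitals.
Mir128-1: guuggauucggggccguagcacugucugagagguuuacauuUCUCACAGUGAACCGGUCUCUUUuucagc
Mir128-2: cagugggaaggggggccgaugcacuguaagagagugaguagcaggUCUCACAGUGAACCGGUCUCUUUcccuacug
Mir7a-1: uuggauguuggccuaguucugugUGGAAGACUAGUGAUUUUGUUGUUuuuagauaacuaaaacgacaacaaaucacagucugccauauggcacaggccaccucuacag
Mir7a-2: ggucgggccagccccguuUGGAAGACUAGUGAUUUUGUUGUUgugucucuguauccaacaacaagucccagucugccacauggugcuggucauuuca
Mir138-1: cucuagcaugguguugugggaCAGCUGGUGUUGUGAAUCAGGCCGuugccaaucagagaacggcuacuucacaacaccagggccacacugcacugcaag
Mir138-2: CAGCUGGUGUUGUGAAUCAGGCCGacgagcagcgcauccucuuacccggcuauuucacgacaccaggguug
The shared stretch is 23 bases for miR-128, which is 2 more than the mature strand, and 24 bases for miR-7a and for miR-138, which is 1 more. A read of the exact mature strand therefore matches both copies. The opposite arms of these hairpins differ between copies, so gene counts of these 6 loci can hold reads of the opposite arm and reads that reach past the shared stretch, and these loci can be under-counted. The tables do not separate the arms.

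Mir137 and Mir7b are the 2 members without such a copy among the 1005 RefSeq hairpins. Their hairpins share at most 10 and 14 bases with another of these. The genome outside the hairpins was not searched, so copies elsewhere were not tested for.
Mir137: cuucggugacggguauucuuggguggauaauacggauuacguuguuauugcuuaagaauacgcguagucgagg
Mir7b: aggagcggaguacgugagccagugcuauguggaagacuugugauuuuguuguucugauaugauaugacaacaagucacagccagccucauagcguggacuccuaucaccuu
Both hairpins are printed without capitals because no stretch of 18 bases or more is shared. How many mismatches the alignment allowed is not given in the sources used here, so reads exchanged between miR-7a and miR-7b were not tested for.

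By position (mm10, GENCODE M21), 3 members lie in introns of protein-coding genes on the same strand. Mir128-1 (chromosome 1, 128202361 to 128202430) lies in R3hdm1, Mir128-2 (chromosome 9, 112118636 to 112118711) in Arpp21, a gene of striatal and other neurons, and Mir7a-1 (chromosome 13, 58392779 to 58392886) in Hnrnpk, which encodes a broadly expressed RNA-binding protein. Another 3 overlap an exon of a transcript without a protein product on the same strand. They are Mir137 (chromosome 3, 118433857 to 118433929) in Gm26871, Mir138-1 (chromosome 9, 122682876 to 122682974) in the pseudogene Gm47135, and Mir138-2 (chromosome 8, 94324311 to 94324381) in the long noncoding RNA C78859. Mir7a-2 (chromosome 7, 78888277 to 78888373) and Mir7b (chromosome 17, 56242988 to 56243098) overlap no other annotated gene. GENCODE M21 calls the miR-7a genes Mir7-1 and Mir7-2.

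Replicate 2 held 3839984 counts on miRNA genes and replicate 1 held 4327424, of 7269505 and 8150499 reads in all. Reads mapping to several places made up 30.1% of the reads in replicate 2 and 30.6% in replicate 1. The heart muscle miRNAs Mir208a, Mir208b and Mir499 were used here as markers of the labelled tissue. They had sums of 79354 CPM for replicate 2 and 75752 CPM for replicate 1. Most of this was Mir208b, at 66822 CPM in replicate 2 and 66314 CPM in replicate 1. Mir208a was 1.43-fold higher in replicate 2 (1.41 to 1.46), Mir499 1.09-fold and Mir208b 1.01-fold. Intervals are at the 95% level. They and the limits set on counts of 0 cover counting error alone and treat each read as independent. PCR copies of a molecule were not marked by identifiers, so the intervals may be too narrow.

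Together the 8 genes came to 376 CPM for replicate 2 and 321 CPM for replicate 1, with a mean of 349 ± 39.1 (SD, n = 2). That is 0.0376% of the gene counts in replicate 2 and 0.0321% in replicate 1. The limit used here for detection was a count of at least 10 in each library. It was reached by 7 of the 8, Mir7a-2 being the exception, whereas 17.1% of all genes in the tables reached it. The 8 were chosen with earlier results of these data known, which limits that contrast. In whole tissue, few cells holding much of a miRNA and many cells holding little cannot be told apart. None of the 8 had a read on the opposite strand in either library, which for Mir128-1 allows up to 0.721% of its reads in replicate 2 and 0.573% in replicate 1, taking 3 counts as the limit that 0 allows.

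The counts of both miR-128 genes came to 123 CPM for replicate 2 and 144 CPM for replicate 1, and those of both miR-138 genes to 117 and 126 CPM for the same libraries. With 473 counts of miR-128 and 451 of miR-138, the families differed by less than counting error in replicate 2. They lay further apart in replicate 1, at 621 counts of miR-128 and 545 of miR-138. Both families lack the reads that match both copies, so their order is uncertain. Mir128-1 had 416 counts (108 CPM) in replicate 2 and 524 (121 CPM) in replicate 1, a mean of 115 ± 9.02 CPM. It was the highest of the 8 genes in both libraries and stood at rank 162 of all genes by mean CPM. Mir128-2 had 57 counts (14.8 CPM) in replicate 2 and 97 (22.4 CPM) in replicate 1, a mean of 18.6 ± 5.35 CPM. Of reads placed at 1 locus, the one in R3hdm1 gave 87.9% of the miR-128 counts in replicate 2 (exact interval 84.7 to 90.7) and 84.4% in replicate 1 (81.3 to 87.1). Mir128-1 exceeded Mir128-2 by 7.30-fold in replicate 2 (5.52 to 9.80) and 5.40-fold in replicate 1 (4.34 to 6.78). The order of the copies was thus the same in both libraries, for those reads that could be placed at 1 locus.

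Both miR-138 loci had counts, in nearly the same proportion in both libraries. These shares describe reads placed at 1 locus, since the mature miR-138-5p strand is identical in both hairpins. Mir138-2 had 293 counts (76.3 CPM) in replicate 2 and 362 (83.7 CPM) in replicate 1, a mean of 79.98 ± 5.20 CPM. Mir138-1 had 158 counts (41.1 CPM) in replicate 2 and 183 (42.3 CPM) in replicate 1, a mean of 41.7 ± 0.808 CPM. Mir138-2 gave 65.0% of the family's counts in replicate 2 (exact interval 60.4 to 69.4) and 66.4% in replicate 1 (62.3 to 70.4), so the share differed between the libraries by less than the counting error. As ratios, Mir138-2 exceeded Mir138-1 by 1.85-fold in replicate 2 and 1.98-fold in replicate 1.

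**Figure D1:**
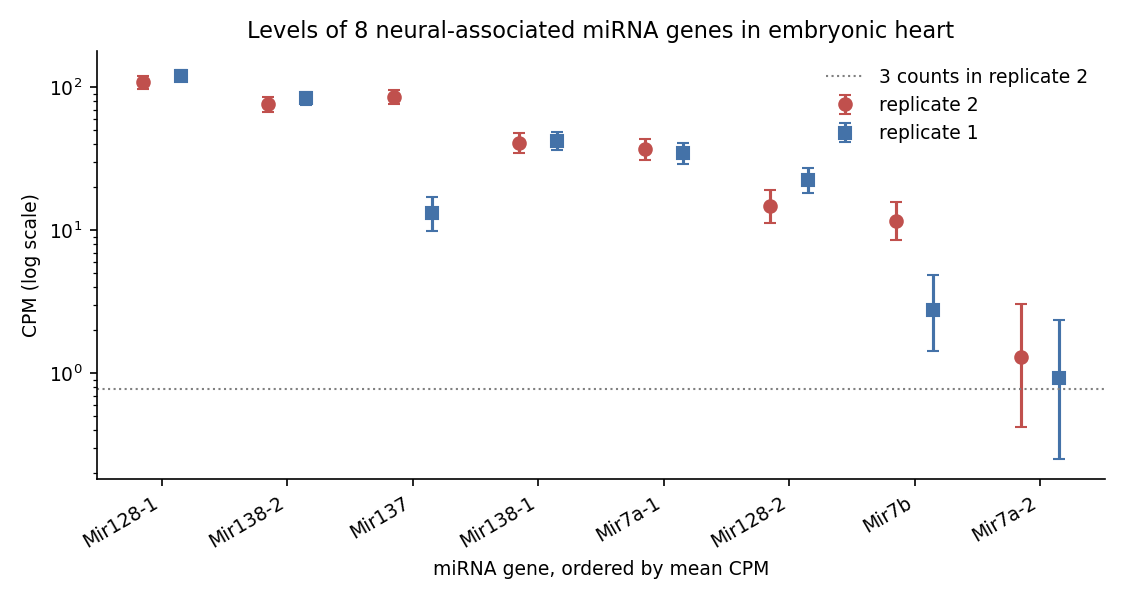
CPM (log axis) of the 8 genes in replicate 2 (circles) and replicate 1 (squares), ordered by mean, with exact 95% Poisson counting intervals, and a dotted line at 3 counts in replicate 2. The libraries lie within 2-fold of each other for 5 of the 7 detected genes and further apart for Mir137 and Mir7b.

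Among miR-7 reads that were placed at 1 locus, most were assigned to Mir7a-1, in the intron of Hnrnpk. Reads of the exact miR-7a-5p strand match both miR-7a loci and are not among them. Mir7a-1 had 142 counts (36.98 CPM) in replicate 2 and 150 (34.7 CPM) in replicate 1, a mean of 35.8 ± 1.64 CPM. The intergenic copy Mir7a-2 had 5 counts in replicate 2 and 4 in replicate 1, or 1.11 ± 0.267 CPM. With so few counts its level has a counting interval of 0.423 to 3.04 CPM in replicate 2 and 0.252 to 2.37 in replicate 1. Mir7b, the seed-sharing relative known from the mouse hypothalamus, had 45 counts (11.7 CPM) in replicate 2 and 12 (2.77 CPM) in replicate 1. Its libraries did not overlap in their counting intervals, 8.55 to 15.7 CPM in replicate 2 and 1.43 to 4.84 in replicate 1. Mir7b accordingly gave 23.4% of the counts of the 3 genes in replicate 2 (exact interval 17.6 to 30.1) and 7.23% in replicate 1 (3.79 to 12.3).

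**Figure D2:**
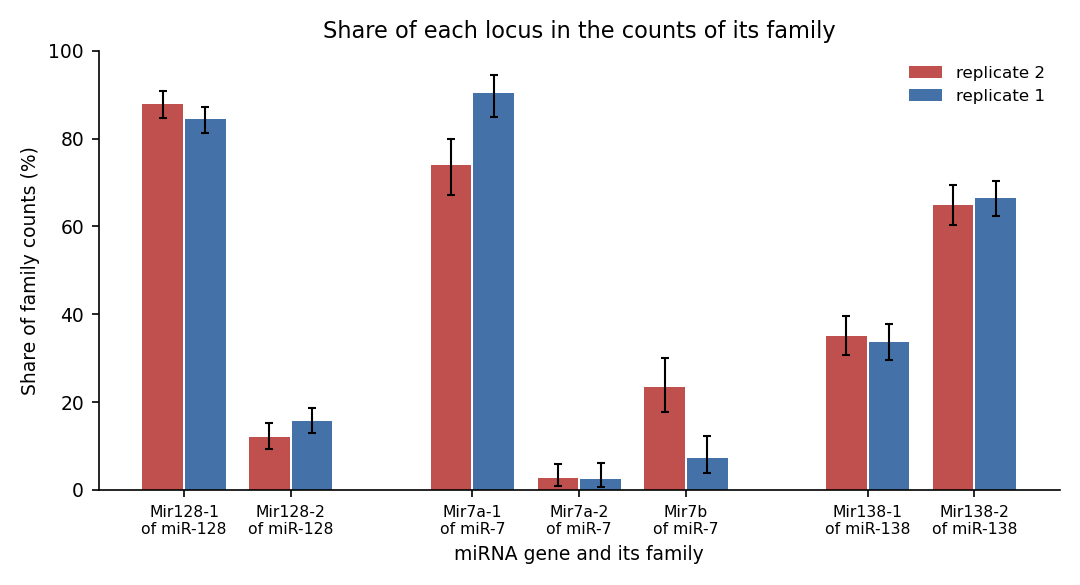
Share of each locus in the summed counts of its family, in percent from 0, for replicate 2 (left bar of each pair) and replicate 1 (right bar), with exact 95% binomial intervals. The miR-138 shares are nearly the same in both libraries, while Mir7b takes 23.4% of miR-7 counts in replicate 2 and 7.23% in replicate 1. Reads that match both miR-7a loci are not counted, whereas Mir7b has no such copy among the RefSeq hairpins. Its share is therefore of placed reads only.

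Mir137 differed most between the libraries among the 8. It had 329 counts (85.7 CPM) in replicate 2 and 57 (13.2 CPM) in replicate 1, a 6.50-fold ratio with a counting interval of 4.90 to 8.78. Its mean of 49.4 ± 51.3 CPM describes neither library. In replicate 2 it was the second of the 8 genes, below Mir128-1, and in replicate 1 it was the sixth. It made up 22.8% of the counts of the 8 genes in replicate 2 and 4.10% in replicate 1. These places and shares set Mir137, which has no copy among the RefSeq hairpins, beside 6 genes that lack the reads matching both copies.

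By mean level the order was Mir128-1, Mir138-2, Mir137, Mir138-1, Mir7a-1, Mir128-2, Mir7b and Mir7a-2. This order compares unlike measures. Mir137 and Mir7b have no copy with the same mature strand among the RefSeq hairpins. The other 6 genes lack the reads that match both copies. Mature strands of these genes are 21 to 24 bases long and 1 read stands for 1 strand, so levels were not divided by length. The ranges of the libraries overlapped between Mir137 and each of Mir138-2, Mir138-1, Mir7a-1 and Mir128-2, so its place in the order is unsettled. Mir138-1 and Mir7a-1 did not overlap in their ranges but did in their counting intervals. With Mir137 left out, the ranges of the other neighbouring pairs did not overlap. The counting intervals of Mir128-2 and Mir7b still overlapped in replicate 2, and those of Mir7b and Mir7a-2 in replicate 1.

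The ratio of replicate 2 to replicate 1 was far from 1 for Mir137 and Mir7b and near it for most other members. Over 2-fold higher in replicate 2 were 2 of the 7 detected members, Mir137 at 6.50-fold and Mir7b at 4.23-fold (interval 2.20 to 8.78), against 4.45% of all 337 detected genes. Among the 128 detected genes with a mean between 7.25 and 115 CPM, the range of the detected members, 9.38% passed that fold. None of the 7 was over 2-fold lower in replicate 2, a fold that 0.297% of all detected genes passed. The other ratios were 1.07 for Mir7a-1 (0.842 to 1.35), 0.973 for Mir138-1 (0.781 to 1.21), 0.912 for Mir138-2 (0.779 to 1.07), 0.895 for Mir128-1 (0.785 to 1.02) and 0.662 for Mir128-2 (0.469 to 0.928). Of these 5 intervals, that of Mir128-2 did not contain 1. With 1 library on each side, no test between the libraries is possible.

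As a list, 3 of the 7 detected members were higher in replicate 2 and 4 were lower, with a median log2 ratio of -0.04, against 59.6% higher and a median of 0.08 over all detected genes. Under median-of-ratios scaling, where Mir7a-1 changed sign, 2 members were higher and 5 lower, against 44.5% higher over all detected genes. The summed level of the 8 genes was 1.17-fold higher in replicate 2 (1.09 to 1.26). Leaving out Mir137 and Mir7b, which were set aside after their values were seen, the other 6 came to 279 CPM for replicate 2 and 305 CPM for replicate 1, a ratio of 0.914 (0.843 to 0.992). Both genes over 2-fold are those whose hairpin shares no long stretch with another RefSeq hairpin. Whether that bears on their ratios was not tested.

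**Figure D3:**
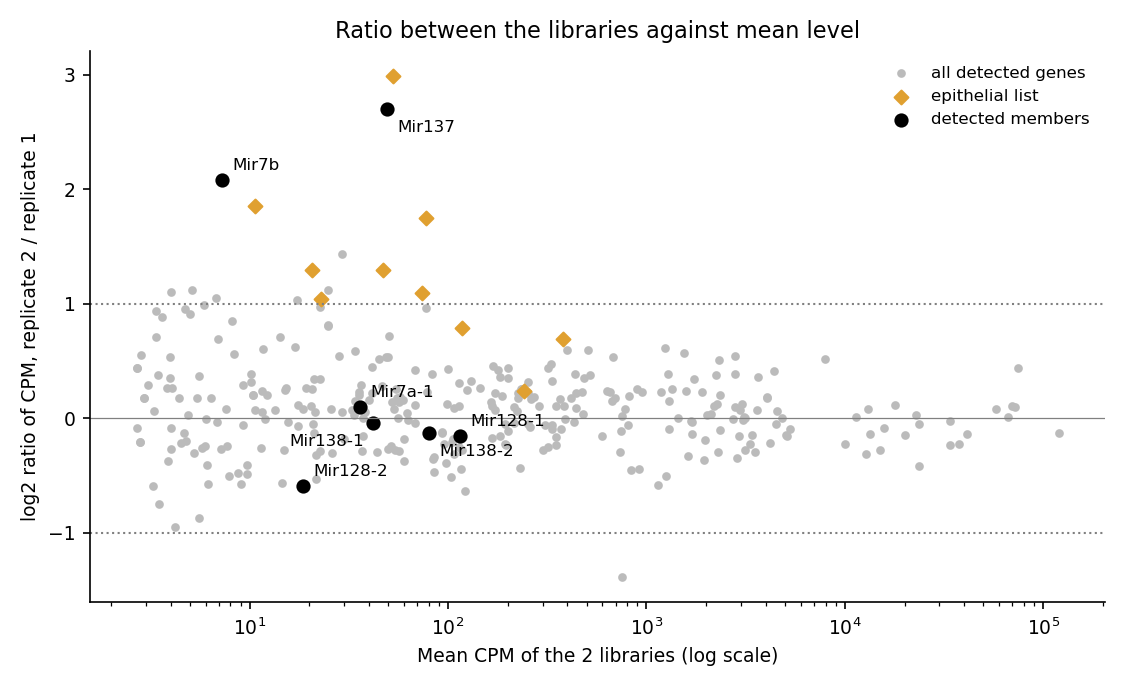
log2 ratio of CPM, replicate 2 over replicate 1, against mean CPM (log axis) for all 337 detected genes (grey), the epithelial list (diamonds) and the 7 detected members (black, named), with dotted lines at 2-fold. Mir137 and Mir7b lie at the upper edge beside epithelial genes, and the other 5 members lie between the dotted lines.

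Among all detected genes, Mir137 had the second highest ratio and Mir7b the third. The highest was that of Mir205, an epithelial miRNA, at 7.95-fold (360 counts in replicate 2 and 51 in replicate 1). After Mir7b came Mir141 at 3.61-fold and Mir200c at 3.36-fold, which also belong to the epithelial list. The counting interval of Mir7b (2.20 to 8.78) contained the ratios of Mir205, Mir137, Mir141 and Mir200c, so its place is unsettled. At the other end stood Mir451a of red blood cells, with 1595 counts in replicate 2 and 4717 in replicate 1, a ratio of 0.381. Mir3060 (0.517), Mir669h (0.545), Mir1982 (0.593) and Mirlet7a-2 (0.644) followed. The counting intervals of Mir3060 (0.228 to 1.10), Mir669h (0.274 to 1.04) and Mir1982 (0.246 to 1.34) contained 1. That of Mirlet7a-2 (0.565 to 0.733) did not.

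Markers of other cell types also differed between these libraries. The epithelial list was chosen with earlier results of these data known. All 10 of its genes were detected and higher in replicate 2, against 59.6% of all detected genes. Of the 10, 7 were over 2-fold higher, against 4.45% of all detected genes, a share that itself includes these 7. Under TMM (trimmed mean of M-values) scaling the number was 6, against 3.56% of all detected genes. Under median-of-ratios scaling it was 5, against 2.97%. Whether the 10 genes vary independently of each other was not tested. The most abundant were Mir429 at 471 CPM in replicate 2 and 292 in replicate 1, Mir203 at 263 and 222 CPM, and Mir200b at 149 and 86.2 CPM in the same libraries. In the pancreas and endocrine list, Mir375 is a miRNA of endocrine cells, as miR-7 is. It had 89 counts in replicate 2 and 49 in replicate 1, a CPM ratio of 2.05 (1.43 to 2.96). Mir216a, Mir216b and Mir217 had 1 or 2 counts in each library. The skeletal muscle miRNA Mir206 had 131 counts in replicate 2 and 68 in replicate 1, a CPM ratio of 2.17 (1.61 to 2.95). The erythroid list, Mir451a, Mir144 and Mir486a, came to 538 CPM for replicate 2 and 1243 CPM for replicate 1, mostly through Mir451a, while Mir144 had a ratio of 0.782 and Mir486a of 0.823. The part of these lists in the ratios of Mir137 and Mir7b was not tested.

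Other miRNAs known from neurons and glia were set beside the members as a list. Of 18 such genes, 15 have a row, 8 were detected and 5 had 0 counts in both libraries. The 5 at 0 are Mir124a-1, Mir124a-2, Mir124a-3, Mir9-2 and Mir9-3, the neuron and neural progenitor miRNAs. For these, 0 counts set a limit of 0.781 CPM in replicate 2 and of 0.693 CPM in replicate 1 among reads placed at 1 locus. Reads that match several Mir124a or several Mir9 loci are not in these counts, so the counts of 0 do not show that miR-124 or miR-9 was absent. Mir9-1, Mir219b and Mir219c were not analysed here. The sum of this list was 281 CPM for replicate 2 and 297 CPM for replicate 1, below the 376 and 321 CPM of the 8 members in the same libraries. Both sums leave out reads that match several loci, so which set is higher is uncertain.

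Mir132, an activity-regulated neuronal miRNA that is also expressed outside the nervous system, gave most of that sum. It had 695 counts in replicate 2 and 920 in replicate 1, a mean of 197 ± 22.3 CPM. That is above the mean of Mir128-1, which lacks the reads that match both miR-128 copies. Mir338 of oligodendrocytes had 122 counts in replicate 2 and 78 in replicate 1, or 24.9 ± 9.72 CPM, and Mir129-2 had 79 and 92 counts in the same order of libraries, or 20.9 ± 0.486 CPM. The 8 detected genes had ratios from 0.717 for Mir153 to 1.99 for Mir383, and a median log2 ratio of 0.07, against 0.08 over all detected genes. None of the 8 was over 2-fold higher or lower, which is near the background of 4.45% higher and 0.297% lower. A ratio past 2-fold lay within the counting interval of 4 of them, Mir383 (1.06 to 3.84), Mir129-1 (0.453 to 2.40), Mir338 (1.32 to 2.37) and Mir153 (0.430 to 1.18).

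**Figure D4:**
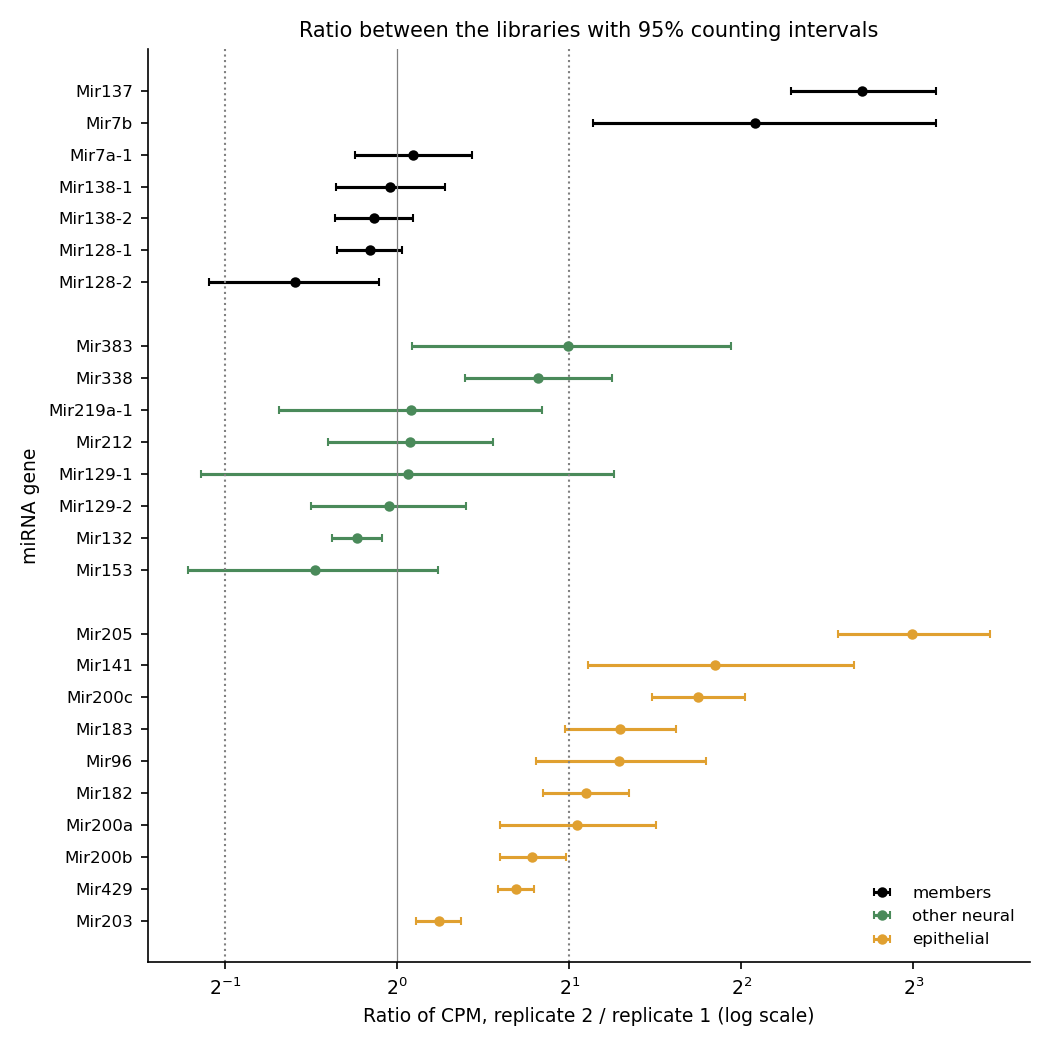
Ratio of CPM, replicate 2 over replicate 1 (log axis), with exact 95% counting intervals for the 7 detected members (top), the 8 detected other neural miRNAs (middle) and the 10 epithelial miRNAs (bottom), with dotted lines at 2-fold. The points of Mir137 and Mir7b lie between those of the epithelial genes Mir205 and Mir141. The points of the 8 other neural miRNAs lie between the dotted lines, a fold that 4.45% of all detected genes pass upward.

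The genes most like each detected member were those at the smallest Euclidean distance in log2(CPM + 1) over both libraries, a measure resting on 2 values per gene. For Mir137 they were Mir205 at 0.20, with 93.8 CPM in replicate 2 and 11.8 in replicate 1, then Mir449a at 1.02 and Mir183 at 1.06. Mir205 thus lay far closer to Mir137 than the second gene did. For Mir7b they were Mir547 at 0.61, Mir383 at 0.65 and Mir3066 at 0.68. Mir128-1 lay next to Mir672 (0.07), Mir1981 (0.09) and Mir493 (0.16), and Mir7a-1 next to Mir103-2 (0.08), Mir33 (0.10) and Mir3074-1 (0.10). Mir138-2 lay next to Mir144 (0.18), Mir877 (0.18) and Mirlet7a-1 (0.26), and Mir138-1 next to Mir377 (0.16), Mir122 (0.18) and Mir668 (0.19). Mir128-2 lay next to Mir1198 (0.30), Mir8114 (0.36) and Mir1968 (0.37).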

How the data were processed

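The deposited tables hold whole-number read counts per miRNA gene, not normalized by the authors, for both strands together and each strand alone. Per the deposited descriptions, they refer to mm10 and GENCODE M4, with 1 table per library. No source used here gives the aligner or the counter. The strand column named by the selection rule was used, totals exclude the 4 summary lines without a gene, and reads mapping to several places made up 30.4% ± 0.359 (SD, n = 2) of all reads. Symbols came from GENCODE M21 (1894 of 1973 identifiers), sequences from RefSeq (8 of 8 members).

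CPM, exact Poisson and binomial intervals and exact conditional intervals of ratios were computed with scipy 1.17.1, pandas 2.3.3 and numpy 2.4.6 (Python 3.11.15). Detection meant 10 counts in each library. Scaling alternatives came from edgeR 4.0.16 and DESeq2 1.42.0 (R 4.3.3). Others were both strands together, pseudocounts, count minimums and each replicate left out. The members and lists were chosen with earlier results of these data known. Named genes were the members, the 3 most abundant genes of lists, the 3 nearest in level to each detected member and the 5 highest and 5 lowest ratios. Mir153, Mir129-1, Mir488, Mir219a-1, Mir219a-2 and the Mir124a and Mir9 genes were named after their values were seen.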

Additional observations from a re-analysis of the deposited data

Results flagged for a closer look

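Mir219a-1, of the other neural miRNAs, had reads on the strand that was not counted, 8 in replicate 2 and 12 in replicate 1, above the 3 counts that a count of 0 allows. They were 21.1% of the reads at that gene in replicate 2 (exact 95% interval 9.55 to 37.3) and 27.3% in replicate 1 (15.0 to 42.8), beside 30 and 32 counts on the counted strand. GENCODE M21 lists Mir219c on the opposite strand at that place. Outlier tests need 4 samples in a group and could not be made.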

How the results depend on the processing

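The summed level of the 8 genes, the number detected, the number over 2-fold higher in replicate 2 and the sum of the other neural miRNAs moved little under the alternatives run. With 1 library left out, the sum of the 8 genes ranged from 321 to 376 CPM, the number detected was 7, and the other neural miRNAs summed to 281 to 297 CPM. Mir137 and Mir7b depended on the library, at 85.7 and 11.7 CPM without replicate 1 and 13.2 and 2.77 CPM without replicate 2. Their log2 ratios were 2.59 to 2.70 and 1.75 to 2.08 under every scaling, pseudocount and strand setting run. Median-of-ratios scaling shifted the median log2 ratio of all detected genes by -0.11, and the number higher in replicate 2 was 150 of 337 (44.5%) against 201 (59.6%). Under it Mir7a-1 turned to -0.02 from 0.09, with an interval that contains 0 either way, and all 10 epithelial genes stayed higher in replicate 2. Over 2-fold higher were 10 genes under that scaling, 12 under TMM (trimmed mean of M-values) and 15 as reported, and 56 of 542 (10.3%) with at least 1 count in each library. The background of 9.38% among genes in the members' range of levels, against 4.45%, was chosen after seeing the data. With both strands together the totals were larger, none of the 8 genes gained reads, and the mean levels of all 8 were lower. Mir7a-1, for example, was at 34.2 CPM and Mir138-1 at 39.8 CPM. The 3 nearest genes of each member were the same with a pseudocount of 0.1 CPM. No paired analysis was possible because the libraries form 1 group. The low counts of Mir7a-2 and Mir7b limit their values.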

Other observations

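Opposite-strand reads faced 3 further genes of the neural list. Mir338 had 2 in replicate 2 and 5 in replicate 1, with Mir3065 annotated on that strand. Mir219a-2 had 2 in replicate 2 and 3 in replicate 1, facing Mir219b, and Mir129-2 had 1 in each library, facing Mir129b. Mir488, a brain miRNA, had 7 counts in replicate 2 and 10 in replicate 1, which is under the detection limit in 1 library.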
